A study of Homo sapiens with 12 samples.

Results

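ABCB6, ABCB8 and ABCB10 encode ATP-binding cassette transporters that are found in mitochondria, and they were followed here by name in RNA-seq of epirubicin-resistant breast cancer cells. These 3 genes were taken from the 58735 genes listed, by their GENCODE 29 symbols. Expression was measured in 12 libraries, 3 in each of 4 groups. SK-BR-3 is a long-established line of human breast cancer cells with amplified ERBB2, and SK/EPI is a resistant line raised from it by prolonged, stepwise exposure to rising epirubicin, an anthracycline. The other two groups are SK/EPI cells that received a control siRNA (SK/EPI-siControl, siNC in the labels) or an siRNA against BCRP (SK/EPI-siBCRP) with Lipofectamine RNAiMax for 48 h. All 4 groups therefore share the SK-BR-3 background, and SK/EPI-siControl and SK/EPI-siBCRP share resistance, transfection and time. BCRP is the drug exporter encoded by ABCG2. SK/EPI is a single resistant line, and the table of the study that holds the silenced cells names siBCRP #1 alone, so resistance is represented by 1 derived line and silencing by 1 siRNA. The labels describe the libraries as triplicates and do not say that they came from separate cultures, so p-values measure only the spread between these libraries, which may be technical.

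Each of these proteins carries a membrane domain joined to an ATP-binding domain, and a pair of such chains makes a working transporter. ABCB10 sits in the inner mitochondrial membrane with its ATP-binding domain facing the matrix. It is induced by GATA1 in maturing red cells, supports heme synthesis and has been found together with mitoferrin-1 (SLC25A37), the iron importer of the inner membrane. ABCB8, also of the inner membrane, has been linked to the export of iron from mitochondria in the heart, to doxorubicin resistance in melanoma cells, and, as the regulatory partner of the CCDC51 channel, to the ATP-sensitive potassium channel of mitochondria. ABCB6 was described in the outer mitochondrial membrane as a transporter of porphyrins, the precursors of heme, and is also found in the plasma membrane and in endosomes and lysosomes, where it carries the Langereis blood group.

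The 3 genes lie on different chromosomes. In GENCODE 29 (GRCh38), ABCB6 (ENSG00000115657) spans chr2:219209766-219219017 on the minus strand, ABCB8 (ENSG00000197150) spans chr7:151028422-151047782 on the plus strand, and ABCB10 (ENSG00000135776) spans chr1:229516582-229558695 on the minus strand. Their promoters are printed because ABCB8 was higher in SK/EPI-siBCRP than in SK/EPI-siControl, and neither of the others passed that test. The letters around the start sites can thus be set side by side. Each is the RefSeq sequence (GRCh38.p14) from 250 bases before to 50 after the start of the gene in RefSeq, which is not the base at which the GENCODE 29 span above begins. The RefSeq start lies 59 bases downstream of the GENCODE 29 start in ABCB6, 28 bases downstream in ABCB8 and 12 bases upstream in ABCB10. The windows are printed 5′ to 3′ on the strand of the gene, at chr2:219218909-219219208 for ABCB6, chr7:151028200-151028499 for ABCB8 and chr1:229558658-229558957 for ABCB10. Capitals mark the CCAAT box (CCAAT) and the E-box (CACGTG) in ABCB6, the CCAAT boxes in ABCB8 and the letters GATAA in ABCB10.
ABCB6: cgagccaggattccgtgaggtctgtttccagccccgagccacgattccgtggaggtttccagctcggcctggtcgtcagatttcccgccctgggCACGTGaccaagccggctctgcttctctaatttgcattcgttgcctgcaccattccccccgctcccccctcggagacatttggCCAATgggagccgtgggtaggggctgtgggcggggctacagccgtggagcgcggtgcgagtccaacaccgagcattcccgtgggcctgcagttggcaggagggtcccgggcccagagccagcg
ABCB8: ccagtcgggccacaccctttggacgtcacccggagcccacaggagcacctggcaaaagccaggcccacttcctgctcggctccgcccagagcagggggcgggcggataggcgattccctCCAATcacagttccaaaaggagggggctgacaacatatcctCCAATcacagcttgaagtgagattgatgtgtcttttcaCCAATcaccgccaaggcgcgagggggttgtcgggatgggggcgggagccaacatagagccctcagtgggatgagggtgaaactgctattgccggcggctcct
ABCB10: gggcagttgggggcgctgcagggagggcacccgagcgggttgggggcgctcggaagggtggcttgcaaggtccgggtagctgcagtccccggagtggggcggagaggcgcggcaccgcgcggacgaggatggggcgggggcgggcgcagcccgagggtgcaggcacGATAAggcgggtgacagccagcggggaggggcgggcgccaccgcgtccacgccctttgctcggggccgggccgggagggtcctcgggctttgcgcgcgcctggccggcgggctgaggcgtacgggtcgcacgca

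Motifs were searched on both strands, with overlapping matches counted. The ABCB8 window held 3 CCAAT boxes, starting at positions -131, -90 and -52 from the RefSeq start, and each was followed by the letters cac. At least 3 CCAAT boxes were present in 3.26% of 35116 promoter windows of the same length, and at least 1 was present in 34.6%. ABCB6 held 1 CCAAT box and ABCB10 none. The CACGTG E-box of ABCB6 was found in 7.26% of windows, and the GATAA of ABCB10 in 22.7%. GC boxes (GGGCGG, in 45.0% of windows) were matched 2 times in ABCB6 and 4 times each in ABCB8 and ABCB10. TGACGT, the core of the cyclic AMP response element, was matched 1 time in ABCB8 (8.0% of windows), and TGACNNNGC, the core of the antioxidant response element, 1 time in ABCB6 (13.4%). G and C made up 65.7% of the ABCB6 window, 61% of the ABCB8 window and 77.3% of the ABCB10 window. No data on factor binding at these windows were part of the series, and a match to these letters is a description of the sequence.

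Reads assigned to genes numbered from 15830381 to 20545811 per library. ABCG2, the silenced gene, followed the labels. It was between 0.0220 and 0.0750 FPKM (sequenced fragments per kilobase of exons at a common library size) in the SK-BR-3 libraries, between 32.7 and 35.9 FPKM in SK/EPI, between 32.5 and 33.7 in SK/EPI-siControl and between 2.84 and 3.47 in SK/EPI-siBCRP. The breast epithelial markers ERBB2, GRB7, KRT8, KRT18, KRT19 and EPCAM summed to 3536 to 3732 FPKM in SK-BR-3, 2206 to 2324 in SK/EPI, 2610 to 2658 in SK/EPI-siControl and 2180 to 2219 in SK/EPI-siBCRP. In SK/EPI 3 of these 6 were called lower and 2 higher, against 37.0% and 37.9% of all tested genes. After silencing all 6 were called lower (the call of EPCAM was lost in 8 of 12 alternative settings), against 18.7% of all tested genes. None of the 7 erythroid markers exceeded 6 reads in any library, although ABCB10 is best known from red cells. Of the other marker lists, the fibroblast genes summed to at most 1.96 FPKM, with DCN and LUM at 2 reads or fewer, but COL1A1 held up to 294 reads, and COL3A1 (0.00514 to 0.325 FPKM) and PDGFRB (0.0106 to 0.2999 FPKM) were called higher in SK/EPI than in SK-BR-3. The leukocyte genes reached 28.9 FPKM, nearly all of it CD14, which went from 0.513 in SK-BR-3 to 27.4 FPKM in SK/EPI, with LYZ at 1 read or none. The 3 endothelial genes were nearly all CDH5, which rose from 6.77 to 27.5 FPKM in SK/EPI and from 13.8 to 22.2 FPKM after silencing, with VWF at no more than 22 reads. The part of these markers in the results was not tested.

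ABCB8 and ABCB10 were expressed at moderate levels in every group, and ABCB6 was low. ABCB6 averaged 0.543 ± 0.0635 FPKM (SD, n = 3) in SK-BR-3, 0.519 ± 0.0473 in SK/EPI, 0.979 ± 0.161 in SK/EPI-siControl and 0.788 ± 0.191 in SK/EPI-siBCRP. ABCB8 averaged 4.90 ± 0.131, 4.24 ± 0.195, 5.44 ± 0.198 and 8.72 ± 0.356 FPKM in the same order. ABCB10 averaged 8.28 ± 1.11, 5.81 ± 0.426, 3.92 ± 0.112 and 3.84 ± 0.248 FPKM. Among the tested genes of its table, ABCB6 stood between the 15.6th and the 23.2nd percentile of mean FPKM over the 4 groups, ABCB8 between the 51.5th and the 69.6th, and ABCB10 between the 49.96th and the 67.5th.

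**Figure D1:**
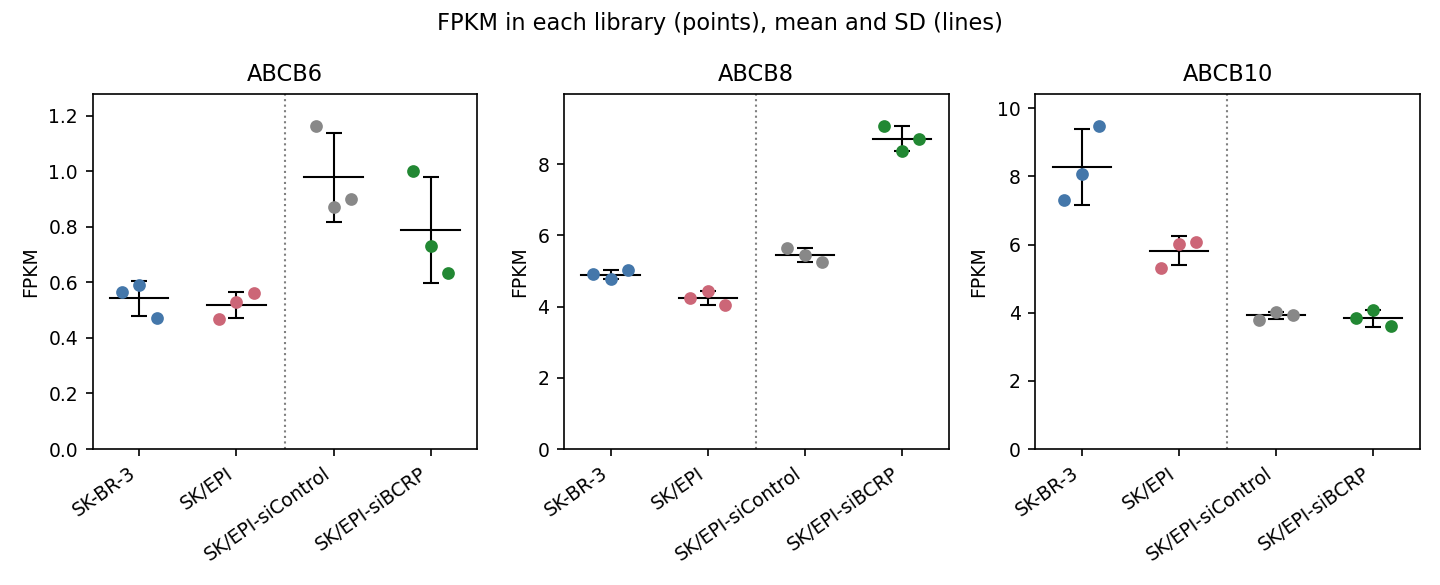
FPKM of ABCB6, ABCB8 and ABCB10 in each of the 12 libraries. Points are libraries, horizontal lines are group means and error bars are SD over 3 libraries; the dotted line separates the 2 deposited tables. All 3 SK/EPI-siBCRP libraries lie above all 3 SK/EPI-siControl libraries for ABCB8, at 8.37 to 9.08 against 5.24 to 5.64 FPKM, and all 3 SK/EPI libraries lie below all 3 SK-BR-3 libraries for ABCB10.

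The order of ABCB8 and ABCB10 depended on the length used. FPKM here is per kilobase of all exons of a gene merged over its transcripts. The merged exons of ABCB8 (9336 bases over 22 transcripts) are 1.99 times as long as its principal transcript (4683 bases), against 1.72 times for ABCB6 (5234 and 3045 bases) and 1.103 times for ABCB10 (4256 and 3857 bases). On the deposited scale ABCB10 was above ABCB8 in each SK-BR-3 and SK/EPI library. Per kilobase of principal transcript, ABCB8 was at 9.77 ± 0.261 and ABCB10 at 9.14 ± 1.23 in SK-BR-3, a gap smaller than the spread of ABCB10, and in SK/EPI cells ABCB8 was higher, at 8.45 ± 0.390 against 6.41 ± 0.470. In the silencing table ABCB8 was above ABCB10 on both scales. ABCB6 was the lowest of the 3 in all 12 libraries on both scales. Both scales take every base of ABCB6 as countable, which its overlap with another gene, given below, leaves uncertain. The rank of ABCB6 is therefore uncertain too.

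The low value of ABCB6 rested on few reads. Between 47 and 56 reads were counted in the SK-BR-3 libraries, 48 to 55 in SK/EPI, 87 to 139 in SK/EPI-siControl and 64 to 102 in SK/EPI-siBCRP. A count of 47 has an exact 95% Poisson interval of 34.5 to 62.5, which covers counting error only. GENCODE 29 lists a same-strand gene, AC068946.2 (ENSG00000284820), that shares 2864 (54.7%) of the exon bases of ABCB6 and 94.1% of those of its principal transcript. AC068946.2 itself held between 1 and 8 reads per library. Only 181 of the 3045 bases of the principal transcript of ABCB6 are unshared. How reads on exons of more than 1 gene were counted is not given in the sources used here. The level of ABCB6 is therefore uncertain, as are the fold changes of ABCB6 and the ratios that include it given below. The part of this overlap in them was not tested. ABCB8 shares 2.22% of its exon bases with the opposite-strand gene AC010973.1, and ABCB10 shares none.

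To ask how these genes differ between resistant and parental cells, SK/EPI was compared with SK-BR-3. ABCB10 and ABCB8 were lower in SK/EPI cells, and no difference was detected for ABCB6. Of all 15823 genes tested, 37.0% were called lower and 37.9% higher at an adjusted p under 0.05, so 2 of 3 genes called lower is a count to be read against a comparison in which most genes moved. In bulk RNA, a smaller share of cells that make a transcript and less of it per cell cannot be told apart.

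ABCB10 showed the larger fall. Its FPKM in the SK-BR-3 libraries was 7.30, 8.07 and 9.49, and in the SK/EPI libraries 5.32, 6.03 and 6.08. The groups did not overlap, and the SK-BR-3 libraries were the more spread. The mean in SK/EPI was 0.702 of that in SK-BR-3, a log2 fold change of FPKM + 1 of -0.44 (SE 0.0895, 95% confidence interval -0.65 to -0.23, limma adjusted p = 0.00237). The median size of change over all tested genes, in either direction, was 0.36.

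ABCB8 changed by less. It was at 4.92, 4.76 and 5.02 FPKM in SK-BR-3 and at 4.25, 4.43 and 4.04 FPKM in SK/EPI. The groups again did not overlap, although the nearest pair was only 4.76 against 4.43. The log2 fold change was -0.17 (SE 0.0508, 95% confidence interval -0.29 to -0.05, adjusted p = 0.0152), less than the median size of change over all genes. The call was lost when every library was scaled to the same sum of FPKM outside the mitochondrial chromosome (-0.12, adjusted p = 0.0797) and without SK/EPI replicate 3 (-0.14, adjusted p = 0.0591). Mitochondrially encoded genes held 5.10% to 5.38% of reads in SK/EPI and 4.18% to 4.23% in SK-BR-3.

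ABCB6 was at 0.566, 0.592 and 0.472 FPKM in SK-BR-3 and at 0.468, 0.529 and 0.561 FPKM in SK/EPI. The groups overlapped almost completely. The log2 fold change was -0.02 (SE 0.0502, 95% confidence interval -0.14 to 0.09, adjusted p = 0.70), and its sign changed under 3 of 12 alternative settings. The log2 of FPKM + 1 compresses changes of genes below 1 FPKM, so this interval understates the span of ratios left for ABCB6.

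**Figure D2:**
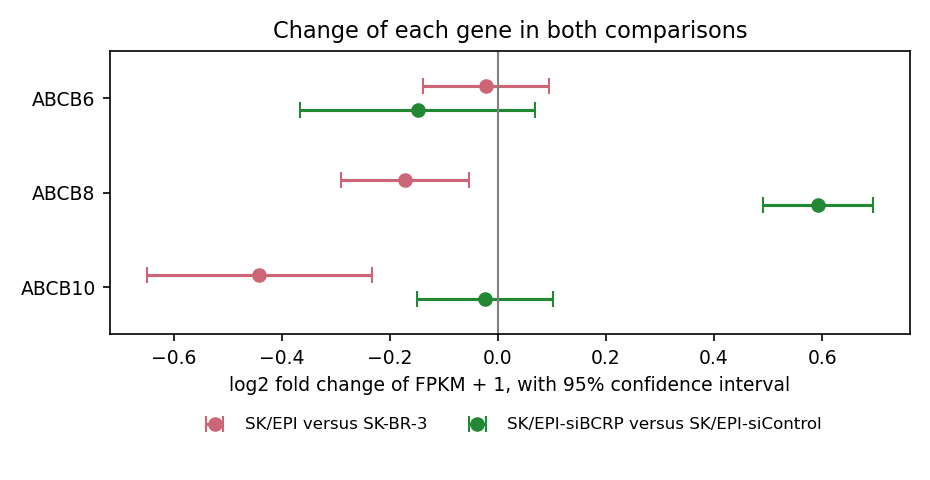
Log2 fold change of FPKM + 1 for each gene in both comparisons, with 95% confidence intervals from limma. Points are the fitted changes for SK/EPI against SK-BR-3 and for SK/EPI-siBCRP against SK/EPI-siControl. The interval of ABCB8 lies below 0 in the first comparison (-0.29 to -0.05) and above 0 in the second (0.49 to 0.69), that of ABCB10 lies below 0 in the first only, and both intervals of ABCB6 include 0.

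To ask how the same genes differ when BCRP is silenced, SK/EPI-siBCRP was compared with SK/EPI-siControl. ABCB8 was upregulated in the silenced cells, and no change was detected for ABCB10 or ABCB6. Of 16298 genes tested, 19.4% were called higher and 18.7% lower, and 1 of the 3 genes was called.

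ABCB8 rose from 5.64, 5.45 and 5.24 FPKM in the control libraries to 9.08, 8.37 and 8.72 FPKM in the silenced ones. These values rest on 967 to 1201 reads and 1574 to 1758 reads per library. Every silenced library was above every control library, and the gap between the groups was wider than the range within either. The mean was 1.60 times that of the controls, an increase of 60.2%, and the log2 fold change was 0.59 (SE 0.0433, 95% confidence interval 0.49 to 0.69, adjusted p = 6.36e-05). Only 183 of the tested genes had a larger rise on this scale, and the median size of change over all genes was 0.12. The scale adds 1 to FPKM, which compresses changes of genes near or below 1 FPKM. The call held in each of the 12 alternative settings, with log2 fold changes between 0.57 and 0.67.

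ABCB10 was at 3.80, 4.02 and 3.94 FPKM in the control libraries and at 3.84, 4.09 and 3.597 FPKM in the silenced ones. The silenced libraries spanned the whole range of the controls. The log2 fold change was -0.02 (SE 0.0536, 95% confidence interval -0.15 to 0.10, adjusted p = 0.761), so the interval of ABCB10 did not reach the lower bound of that of ABCB8.

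ABCB6 was at 1.164, 0.873 and 0.900 FPKM in the control libraries and at 1.00, 0.730 and 0.632 FPKM in the silenced ones. The highest silenced library lay between the control libraries. The log2 fold change was -0.15 (SE 0.0923, 95% confidence interval -0.37 to 0.07, adjusted p = 0.248). It was negative under all 12 alternative settings and past the threshold in none, with the lowest adjusted p, 0.0745, without SK/EPI-siBCRP replicate 1.

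The siRNA was checked against the 3 genes. The antisense strand of siBCRP #1, with its seed (bases 2 to 8) in capitals, is shown because the silencing comparison rests on it.
siBCRP #1 antisense: aUAACCAGcugauucaaaguauccc
The full target of its 25 bases was found in transcripts of ABCG2 alone. The 7-base site of the seed, CTGGTTA, had 0 matches in the principal transcripts of ABCB6, ABCB8 and ABCB10, and 15.6% of 12927 tested coding genes had at least 1. The longest run shared with the target was 8 bases in ABCB6, 8 in ABCB8 and 9 in ABCB10. Such matches are sites for direct lowering of a transcript, and ABCB8 rose, so the search does not address its rise. Other effects of this siRNA were not tested.

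Whether the genes moved by different amounts was examined from the ratio of each pair within a library, which does not depend on how that library was scaled. With 3 libraries against 3, the exact two-sided permutation test cannot go below 0.1, and 6 ratios were compared. After silencing, ABCB8 rose against both of the others. The ratio of ABCB8 over ABCB10 was 1.48, 1.36 and 1.33 in the control libraries and 2.37, 2.04 and 2.42 in the silenced ones. The mean log2 difference was 0.71 (SE 0.0907), with no overlap between the groups (exact permutation p = 0.1, adjusted p = 0.2).

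The ratio of ABCB8 over ABCB6 went from 4.84, 6.24 and 5.83 in the control libraries to 9.07, 11.5 and 13.8 in the silenced ones. This log2 difference was 1.01 (SE 0.206), again with no overlap (exact permutation p = 0.1, adjusted p = 0.2). The ratio of ABCB10 over ABCB6 overlapped between these groups, with a difference of 0.30 (SE 0.242, exact permutation p = 0.3, adjusted p = 0.36).

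Between SK/EPI and SK-BR-3, the ratio of ABCB10 over ABCB6 was lower in each SK/EPI library (11.4, 11.4 and 10.8) than in each SK-BR-3 library (12.9, 13.6 and 20.1). The log2 difference was -0.44 (SE 0.204, exact permutation p = 0.1, adjusted p = 0.2), and it was -0.24 without SK-BR-3 replicate 3, which held the highest ratio. The ratios of ABCB8 over ABCB6 (-0.15, SE 0.156, exact permutation p = 0.5, adjusted p = 0.5) and of ABCB8 over ABCB10 (0.29, SE 0.127, exact permutation p = 0.2, adjusted p = 0.3) overlapped between the groups. None of the 6 ratios could reach an adjusted p under 0.05 in this design.

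**Figure D3:**
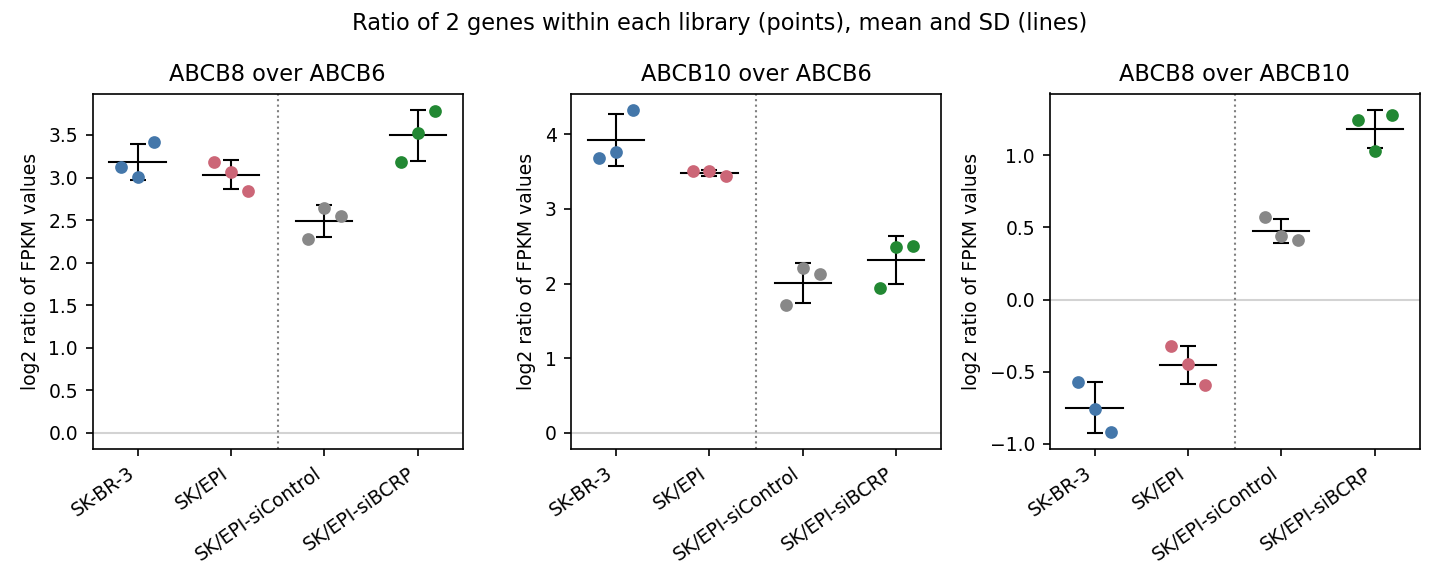
Log2 ratio of the FPKM values of each pair of genes within each library. Points are libraries, lines are group means and error bars are SD over 3 libraries; a value of 0 means equal FPKM, and the dotted line separates the 2 tables. The ratio of ABCB8 over ABCB10 is below 0 in the 6 libraries of SK-BR-3 and SK/EPI and above 0 in the 6 transfected libraries.

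SK/EPI cells appear in both tables, untreated in one and transfected with control siRNA in the other, and the levels are given side by side without a test because the tables were normalised separately. ABCB10 averaged 5.81 FPKM in SK/EPI and 3.92 in SK/EPI-siControl, ABCB8 4.24 and 5.44, and ABCB6 0.519 and 0.979. No ABCB6 or ABCB8 value of SK/EPI fell within the range of SK/EPI-siControl, nor did any ABCB10 value. How many of all genes lay apart in the same way was not counted, so this is not read as particular to these genes. Table, transfection and time in culture cannot be told apart in these differences.

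The surroundings of each gene were examined for change that extended beyond it. Within 500 kb of ABCB8, 19 other genes were tested in the silencing comparison, of which 4 were higher, 3 lower and 12 not called, and their median log2 fold change was -0.04. Of all tested genes, 19.4% were higher and 18.7% lower in that comparison. All 19 neighbours had a smaller log2 fold change of FPKM + 1 than ABCB8. The closest to it in size was its nearest downstream neighbour ASIC3, an acid-sensing ion channel on the same strand that starts 510 bases past the end of ABCB8. ASIC3 rose from 0.959 ± 0.181 to 1.88 ± 0.169 FPKM (log2 fold change 0.56, SE 0.0827, adjusted p = 0.00176). The added 1 compresses changes of genes near 1 FPKM, and as a ratio of mean FPKM the rise of ASIC3 was larger than that of ABCB8. Whether reads running past the end of ABCB8 contributed to ASIC3 was not tested. ATG9B, a lipid scramblase of autophagy on the opposite strand 3923 bases upstream, was at 0.874 and 0.781 FPKM (adjusted p = 0.516).

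Around ABCB10, 8 genes were tested. In SK/EPI against SK-BR-3, 3 were lower, 1 was higher and 4 were not called, where 37.0% of all genes were lower and 37.9% higher. Both neighbours of ABCB10 were among the lower: TAF5L, a subunit of a histone acetyltransferase complex 34416 bases upstream, fell by 0.53 on the log2 scale (SE 0.0525, adjusted p = 3.98e-05), and NUP133, a nuclear pore subunit 8241 bases downstream, fell by 0.20 (SE 0.0432, adjusted p = 0.00302). After silencing neither passed the threshold, as for ABCB10 (adjusted p = 0.243 and 0.111). Around ABCB6, where no change was detected, 14 of 22 tested genes were higher and 3 lower in SK/EPI (37.9% and 37.0% of all genes). After silencing 6 of 24 were higher and 5 lower (19.4% and 18.7% of all genes). ATG9A, the autophagy scramblase that ends 363 bases before the start of ABCB6, rose by 0.18 in SK/EPI (adjusted p = 0.00827) and fell by 0.15 after silencing (adjusted p = 0.0285), and ZFAND2B, 115 bases from the other end, passed the threshold in neither comparison.

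**Figure D4:**
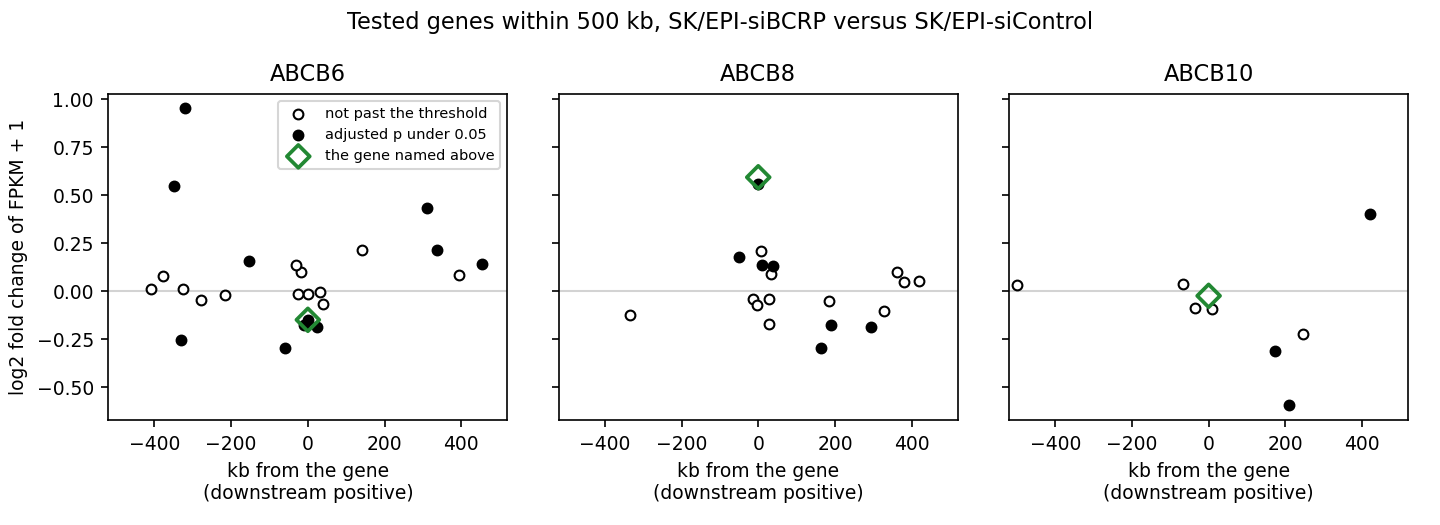
Log2 fold change of FPKM + 1 after BCRP silencing for the tested genes within 500 kb of each gene, against their distance in kb, with the downstream direction to the right. Open green diamonds are ABCB6, ABCB8 and ABCB10 themselves, filled circles are neighbours with an adjusted p under 0.05 and open circles the other neighbours. ABCB8, at 0.59, is above all 19 of its neighbours on this scale, with ASIC3 just beneath it at 0.56. The added 1 compresses changes of genes near 1 FPKM, and the ratio of mean FPKM was larger for ASIC3.

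The genes with the most similar pattern were found by Pearson's r on log2(FPKM + 1), centred within each table, over the 12 libraries and among 11487 genes compared. For ABCB8 these were GHITM (r = 0.98), TVP23B (r = 0.98) and FASTKD1 (r = 0.98). GHITM, an inner mitochondrial membrane protein, had log2 fold changes of -0.28 in SK/EPI and 0.90 after silencing, and FASTKD1, a mitochondrial RNA regulator, of -0.23 and 0.82. TVP23B was at -0.08 in SK/EPI, which did not pass the threshold (limma adjusted p = 0.16), and at 0.45 after silencing. For ABCB10 they were NSD1 (r = 0.97), COMMD8 (r = 0.96) and STAU1 (r = 0.96), and for ABCB6 DAPK3 (r = 0.90), MIR503HG (r = 0.83) and ZNF668 (r = 0.83). Among the 3 genes themselves, r was 0.19 for ABCB8 with ABCB10, 0.05 for ABCB6 with ABCB10 and -0.43 for ABCB6 with ABCB8. The libraries share groups and tables, so these values describe likeness over 4 groups more than over 12 independent points.

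The other ABCB genes listed were set beside them. Of 7, 5 were tested in SK/EPI against SK-BR-3 and 6 after silencing. Of all tested genes, 37.9% were called higher and 37.0% lower in SK/EPI, and 19.4% higher and 18.7% lower after silencing. ABCB1, the P-glycoprotein drug pump, was at 0 to 0.0181 FPKM in the SK-BR-3 libraries and at 326.7 ± 1.8 FPKM in SK/EPI, and went from 206 to 187 FPKM after silencing (log2 fold change -0.14, adjusted p = 0.0018). ABCB9, a peptide transporter of lysosomes, fell from 2.08 to 1.08 FPKM in SK/EPI (-0.57, adjusted p = 2.1e-05), and TAP2, which with TAP1 carries peptides for antigen presentation, fell by 0.34. TAP1 was at 21.4 and 21.2 FPKM, and ABCB4, a lipid exporter of the liver, at 0.129 and 0.171 FPKM, with no difference detected. After silencing, TAP1, TAP2, ABCB4, ABCB9 and ABCB11 did not pass the threshold, with adjusted p from 0.056 to 0.77. Among the tested genes of these 7 and the 3 followed here, ABCB8 was the one called higher, where 19.4% of all genes were. TAP1 (0.10, adjusted p = 0.056) was also called higher with median-of-ratios scaling, with voom on recovered reads and without SK/EPI-siBCRP replicate 3, at adjusted p from 0.0369 to 0.0483. ABCB5 was at 4 reads or fewer in every library and was not tested, and ABCB11 was tested only after silencing, at 16 reads or fewer.

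Among 11 transporters built from paired chains, in the ABCB, ABCD and ABCG groups, 7 were tested. In SK/EPI 3 were higher (ABCG2, the sterol exporter ABCG1 and ABCD4) and 3 lower, ABCD3 (-1.13), ABCB9 and TAP2. Of all genes, 37.9% were higher and 37.0% lower in SK/EPI, and 19.4% were higher and 18.7% lower after silencing. After silencing, ABCG1 was called higher, by 0.28, as was TAP1 in the 3 settings just given, and ABCG2 and ABCD3 (-0.23) were lower. ABCD4 (-0.12, adjusted p = 0.10) was also called lower with voom on recovered reads (adjusted p = 0.0255). The rise of ABCB8 was 0.59 on the same scale.

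ABCB6 and ABCB10 are tied to heme synthesis. Of 7 genes of this pathway tested in SK/EPI, 5 were lower and 1, ALAS1, was higher, where 37.0% of all genes were lower and 37.9% higher, and the median log2 fold change was -0.17 against 0.01 over all genes. The count was 3 lower and 2 higher with every library scaled to the same sum outside the mitochondrial chromosome, with voom on recovered reads and without SK/EPI replicate 1. ALAS1 makes the first precursor in mitochondria, and rose from 26.4 ± 0.85 to 31.7 ± 1.5 FPKM (0.25, adjusted p = 0.00088). ALAD and UROS, which act in the cytosol, fell by 0.92 and 0.88. UROD fell by 0.20, CPOX by 0.17 and FECH, which inserts the iron, by 0.16, while PPOX was at 2.54 and 3.00 FPKM (adjusted p = 0.061). The calls of CPOX and FECH were lost in 7 and 6 of 12 alternative settings. After silencing ALAS1 rose again (0.23, adjusted p = 0.0017), and the other 6 did not pass the threshold. Of all genes, 19.4% were higher and 18.7% lower after silencing. ALAS2, the erythroid form, stayed at 6 reads or fewer.

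**Figure D5:**
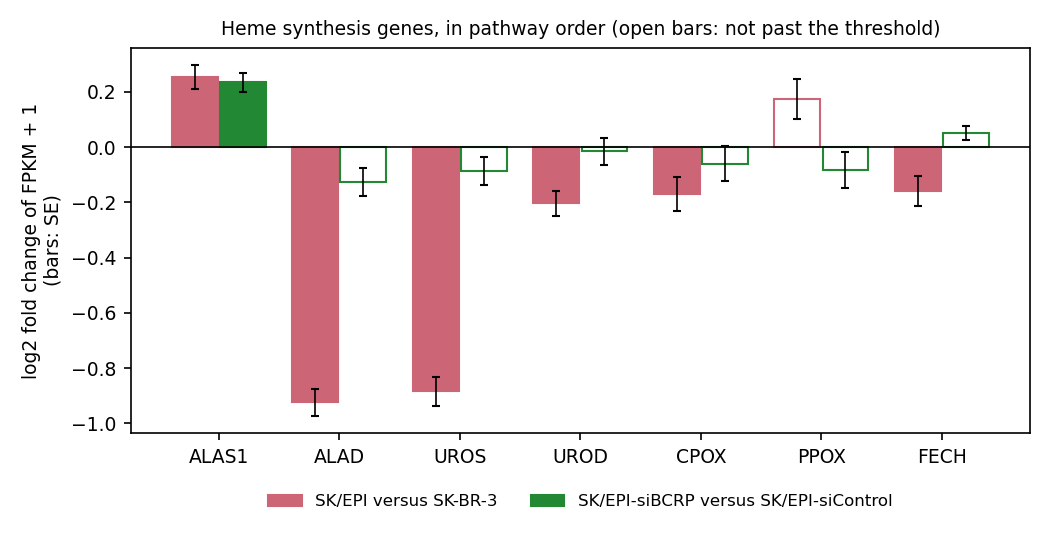
Log2 fold change of FPKM + 1 for the 7 heme synthesis genes followed, in pathway order, in SK/EPI against SK-BR-3 and in SK/EPI-siBCRP against SK/EPI-siControl. Bars are fitted changes with SE, filled where the adjusted p is under 0.05 and open where it is not. ALAS1 is above 0 in both comparisons, at 0.25 and 0.23, and ALAD and UROS fell the most in SK/EPI, by 0.92 and 0.88.

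Of 13 genes of heme breakdown and transport, 4 were higher and 9 lower in SK/EPI, against 37.9% and 37.0% of all genes. The largest rises were in HMOX1, the inducible heme oxygenase (from 5.39 to 26.01 FPKM, log2 fold change 2.08), the folate and heme carrier SLC46A1 (1.00) and PGRMC2 (0.69), and the largest falls in BLVRA, which reduces biliverdin (-2.49), TSPO (-1.46) and TMEM14C, a porphyrinogen transporter of the inner membrane (-1.21). After silencing, where 19.4% of all genes were higher and 18.7% lower, 3 were higher, BLVRB (0.31), HMOX2 (0.27) and FLVCR2 (0.19), and 3 lower, PGRMC1 (-1.33), SLC48A1 (-0.26) and HMOX1 (-0.13). The silencing calls of FLVCR2 and HMOX1 were lost in 8 of 12 alternative settings each.

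In SK/EPI, the described partners of ABCB10 and ABCB8 changed in the opposite direction to them, where 37.9% of all genes were higher and 37.0% lower. The fall of ABCB8 was small (-0.17), and its call was lost in 2 of 12 alternative settings. SLC25A37, the partner of ABCB10, rose from 7.23 ± 0.16 to 14.8 ± 0.19 FPKM in SK/EPI (0.94, adjusted p = 1.2e-07), where ABCB10 fell, and was at 20.8 and 19.9 FPKM in the transfected groups (adjusted p = 0.21). The related importer SLC25A28 passed the threshold in neither comparison (adjusted p = 0.079 and 0.62). CCDC51, the channel partner of ABCB8, rose in both, from 11.2 to 14.3 FPKM in SK/EPI (0.33, adjusted p = 0.00066), where ABCB8 fell, and from 11.9 to 14.7 FPKM after silencing (0.29, adjusted p = 0.0011), where ABCB8 also rose.

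Of the 18 tested genes for iron-sulphur cluster assembly in mitochondria, 5 were higher and 9 lower in SK/EPI (37.9% and 37.0% of all genes), and 8 higher and 1 lower after silencing (19.4% and 18.7% of all genes). The SK/EPI count was 7 higher and 7 lower with equal sums outside the mitochondrial chromosome and with voom on recovered reads. In SK/EPI the largest rises after SLC25A37 were in ISCU (0.61) and FDXR (0.45) and the largest falls in IBA57 (-0.89), HSCB (-0.68) and BOLA3 (-0.57). The calls of HSPA9 and ISCA1, which were also lower, were lost in 6 and 8 of 12 alternative settings. After silencing the largest rises were in BOLA3 (0.73), ISCA1 (0.47) and FDXR (0.40), with HSCB lower (-0.20, a call lost in 7 of 12 alternative settings). Of 11 cytosolic assembly genes, 2 were higher (CIAO2B 0.59, MMS19 0.39) and 3 lower (GLRX3 -0.76, CIAO3 -0.24, CIAPIN1 -0.14, lost in 6 of 12 alternative settings) in SK/EPI, and 4 were higher, led by CIAPIN1 (0.30), CIAO1 (0.23) and GLRX3 (0.18), and CIAO2A lower (-0.51) after silencing. The SK/EPI count of the cytosolic genes was 5 higher and 2 lower with equal sums and 6 higher and 2 lower with voom. Of 13 genes of cellular iron, 7 were higher and 2 lower in SK/EPI, and 6 higher and 2 lower after silencing, against the same shares of all genes. The iron-regulatory protein ACO1 (2.61) and the ferritin chains FTL (2.48) and FTH1 (1.69) rose the most, and SLC11A2 (-0.40) and NCOA4 (-0.26) fell. After silencing the rises were led by SLC11A2 (0.75), the transferrin receptor TFRC (0.74) and STEAP3 (0.50), and PCBP1 (-0.31) and SLC40A1 (-0.17) fell.

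Genes for general mitochondrial proteins were counted to describe the organelle as a whole. There were 15 such genes, among them the import pores TOMM40 and TIMM23, the channel VDAC1, the chaperone HSPD1, PHB and CS. In SK/EPI 10 were lower and 3 higher (HSPD1 0.50, TIMM44 0.35 and PHB 0.32), against 37.0% and 37.9% of all genes. The largest falls were in VDAC1 (-0.83), TIMM23 (-0.75) and TOMM40 (-0.69). After silencing all 15 were higher (14 with no filter on low genes), against 19.4% of all genes, led by TOMM40 (0.58), HSPD1 (0.51) and PHB (0.45), with a median log2 fold change of 0.32, and their sum went from 745.8 to 752.2 FPKM in the control libraries to 949.9 to 964.6 FPKM in the silenced ones. The rise of ABCB8 (0.59) was above that of each of the 15, while ABCB10 (-0.02) and ABCB6 (-0.15) were below every one of them. The part of this rise in that of ABCB8 was not tested.

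Of 8 tested genes for factors and coactivators named for mitochondrial, heme or stress regulation, 1 was higher (NFE2L2, 0.59) and 4 lower (NRF1 -0.41, ESRRA -0.31, MAFK -0.19 and BACH1 -0.15, a call lost in 7 of 12 alternative settings) in SK/EPI. After silencing 5 were higher, led by PPARGC1B (0.47), ESRRA (0.35) and PPRC1 (0.17) and with the call of GABPA (0.16) lost in 8 of 12 alternative settings, and NFE2L2 was lower (-0.16). Over all tested genes, 37.9% were higher and 37.0% lower in SK/EPI, and 19.4% were higher and 18.7% lower after silencing. GATA1, which drives ABCB10 in red cells, was at 5 reads or fewer in every library.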

How the data were processed

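RNA was poly-A selected, made into libraries with the NEBNext Ultra kit and sequenced by NovoGene. The authors deposited values in 2 tables with no unit in the header. Multiplied by merged exon length (GENCODE 29), all values in a library were whole multiples of 1 step (100% of values, tolerance 0.02), so the deposited values were read as FPKM and reads per gene were computed back. The submitters' processing notes list HISAT2 2.0.5, featureCounts 1.5.0-p3, DESeq2 1.16.1 and hg38, without roles. Reads on genes were 99.8% to 101% of the totals the authors divided by in SK-BR-3, 92.8% to 95.4% in SK/EPI and 89.5% to 90.7% in the other table.

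Tested genes had 10 or more reads (scaled to the median depth) in 3 or more libraries and 15 or more in total. In each table log2(FPKM + 1) was fitted on group with limma 3.58.1 (lmFit, eBayes with trend, R 4.3.3), with Benjamini-Hochberg adjustment over all tested genes and a threshold of 0.05. The steps were tested on simulated data. The members and lists were chosen with earlier results of these data known. Some genes of the lists are not reported here and are not counted. Named by rule were the other listed ABCB and heme synthesis genes and, of the other lists, up to 3 largest rises and falls among called genes averaging 1 FPKM or more. BACH1, HSPA9 and marker genes with few reads were named after their values were seen. Alternatives were a pseudocount of 0.1, no filter, equal sums without the mitochondrial chromosome, median-of-ratios scaling, a replicate block, each library left out, and voom on the recovered reads.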

Additional observations from a re-analysis of the deposited data

How the results depend on the processing

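Of 12 alternative settings per gene and comparison, those of ABCB8 after silencing (log2 fold change 0.57 to 0.67), ABCB10 in SK/EPI (-0.52 to -0.35, adjusted p 0.00011 to 0.0132) and ABCB6 after silencing (-0.36 to -0.08) all kept direction and side of the threshold. ABCB8 in SK/EPI lost its call with equal sums outside the mitochondrial chromosome (-0.1196, adjusted p = 0.0797) and without SK/EPI replicate 3 (-0.144, adjusted p = 0.0591). Leaving out 1 library gave -0.1982 to -0.1444 for ABCB8 in SK/EPI, -0.05625 to 0.002214 for ABCB6 in SK/EPI (above 0 without SK-BR-3 replicate 2, 0.0007053, and without SK/EPI replicate 1, 0.002214) and -0.06088 to 0.0131 for ABCB10 after silencing (above 0 without SK/EPI-siBCRP replicate 3). With voom, ABCB6 in SK/EPI was at 0.02807 (adjusted p = 0.90). The cause was not tested, and none of the changes that reversed had passed the threshold. The number of genes called stayed between 11237 and 12230 (11854 as reported) and between 4654 and 7043 (6215).

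Same-numbered libraries did not deviate together (r = -0.04, -0.002 and -0.05 in the first table and 0.02, 0.06 and 0.009 in the second). These values show no pairing by number but cannot exclude it, because counting noise lowers such correlations. With the replicate block, 11656 and 5640 genes were called, and ABCB8 (adjusted p = 0.0405 and 0.000745) and ABCB10 in SK/EPI (0.000853) stayed called. Depth limits ABCB6 most, at 47 to 139 reads.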
